A study of Homo sapiens with 12 samples.

Results

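The genes described here are 10 members of the SOX transcription factor family: SOX1, SOX2, SOX7, SOX8, SOX9, SOX11, SOX14, SOX17, SOX18 and SOX21. They were taken from a fixed list of symbols, which was chosen with earlier results of these data known. Each gene was measured over a window made of its gene body with 20 kb on either side. They are 10 of the 20 SOX family genes in the RefSeq table and 10 of its 20037 protein-coding genes on the chromosomes. The cells were HepG2/C3A, an established hepatocellular carcinoma line that is a clone of HepG2, so all values describe a single line and no other liver cell type. Control cells and cells given 10 mM sodium succinate, which was dissolved in sterile water, were compared after 48 hours. The design text calls the control a vehicle, and every group was grown in the same high-glucose medium with fetal bovine serum. Chromatin was profiled by CUT&Tag, in which an antibody directs a transposase to cut and tag the DNA beside its target. One antibody recognised histone H3 trimethylated at lysine 27 (H3K27me3) and the other succinylated lysine on any protein (Ksu). Each combination of antibody and treatment had 2 biological replicates, giving 8 peak lists. No antibody background was subtracted here, because the 4 IgG samples are not analysed. Whether the authors called peaks against them is not given in the sources used.

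SOX proteins are relatives of SRY that bend DNA through a shared HMG box and direct cell fate in the embryo. H3K27me3 is written by the Polycomb complex PRC2, typically at CpG-rich starts of developmental regulators that a cell type keeps silent. Lysine succinylation is an acyl mark derived from succinyl-CoA, an intermediate of the citric acid cycle. SOX1, SOX2, SOX14 and SOX21 belong to the group B genes of neural and stem cells, and SOX11 to the group C genes of developing neurons. SOX8 and SOX9 form part of group E, known from cartilage, testis, neural crest and bile duct cells. SOX7, SOX17 and SOX18 are the group F genes of endothelium, and SOX17 also acts in definitive endoderm.

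The 250 bases before the start are shown for the members whose start is in the RefSeq promoter table and could be set against the peaks, because CpG-rich starts are where H3K27me3 is usually found. These were 3 of the 10 members, in RefSeq build GRCh38.p14, each read from 5′ to 3′ on its own strand with every CG dinucleotide in capitals.
SOX1 at chr13:112066899-112067148 (plus strand): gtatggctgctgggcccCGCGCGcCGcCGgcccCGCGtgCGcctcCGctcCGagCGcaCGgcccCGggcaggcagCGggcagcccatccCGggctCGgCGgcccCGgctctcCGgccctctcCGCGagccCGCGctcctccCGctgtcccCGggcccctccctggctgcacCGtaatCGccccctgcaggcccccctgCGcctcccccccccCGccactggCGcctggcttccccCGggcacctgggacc
SOX2 at chr3:181711675-181711924 (plus strand): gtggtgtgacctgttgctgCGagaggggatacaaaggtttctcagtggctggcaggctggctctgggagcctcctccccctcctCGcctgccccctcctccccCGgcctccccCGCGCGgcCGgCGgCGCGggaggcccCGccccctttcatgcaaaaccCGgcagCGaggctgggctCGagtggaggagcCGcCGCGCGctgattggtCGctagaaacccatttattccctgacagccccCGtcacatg
SOX21 at chr13:94712546-94712795 (minus strand): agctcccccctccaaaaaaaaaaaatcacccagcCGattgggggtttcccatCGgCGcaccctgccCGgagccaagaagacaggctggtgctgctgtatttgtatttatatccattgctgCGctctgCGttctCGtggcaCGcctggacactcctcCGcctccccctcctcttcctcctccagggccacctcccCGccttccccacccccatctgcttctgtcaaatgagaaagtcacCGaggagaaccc
The SOX1 stretch held 31 CG dinucleotides, the SOX2 stretch 20 and the SOX21 stretch 11. A CG reads the same on both strands, and the median over 22197 starts of protein-coding genes was 16. Of those starts, 13.6% held at least as many as SOX1, 41.5% as many as SOX2 and 63.4% as many as SOX21. The 250 bases before SOX2 lay wholly under an H3K27me3 peak in control replicate 1 and succinate replicate 1 and outside every peak in the other libraries. Those before SOX21 lay wholly under a peak in control replicate 1 alone. No library had an H3K27me3 peak over the 250 bases before SOX1, and no library had a Ksu peak over any of the 3 stretches.

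The libraries differed in how much was listed. The H3K27me3 lists held 5531 to 19133 peaks, with the most in control replicate 1, and covered 3.83% to 6.51% of the chromosomes. The Ksu lists held 76702 to 629903 peaks and covered 2.63% to 10.8%, with the least in control replicate 1. Read depth is unknown for such lists. Of 12 hepatocyte genes, none had an H3K27me3 peak over its gene body in any library, where 75% of all genes had none, and 9 windows had none, where 58% of all windows had none. The other windows were those of APOB (11.3% to 16.3% covered), HNF4A (0% to 3.81%) and FOXA2 (31.4% and 10.8% in control, 0% in both succinate libraries). Peak lists do not measure expression, so these values are no direct check of the cell type.

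H3K27me3 lay at some SOX genes in every library, at others in some libraries, and at a pair of them in none. SOX8, SOX7, SOX21 and SOX14 were overlapped in all 4 libraries, and these 4 were also the members whose gene bodies were overlapped in all 4. SOX9 and SOX18 were overlapped in 3 libraries, SOX2 in the 2 libraries numbered 1 and SOX1 only in control replicate 1. SOX11 and SOX17 had no H3K27me3 peak in their windows in any library. The 4 of 10 windows overlapped in every library stood beside 20.8% of all protein-coding windows, and also 20.8% of the 5694 windows whose gene body is at most 10 kb, which are closer in size to the SOX windows. The 2 of 10 in no library stood beside 58% of all windows and 60.4% of those with short gene bodies. For gene bodies the counts were 4 of 10 in every library and 4 of 10 in none, beside 12.3% and 75% of all genes. By library, the median SOX window was 28.2% and 0% covered in the controls, against 21.0% and 23.7% with succinate, where the median of all windows was 0% in each.

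**Figure D1:**
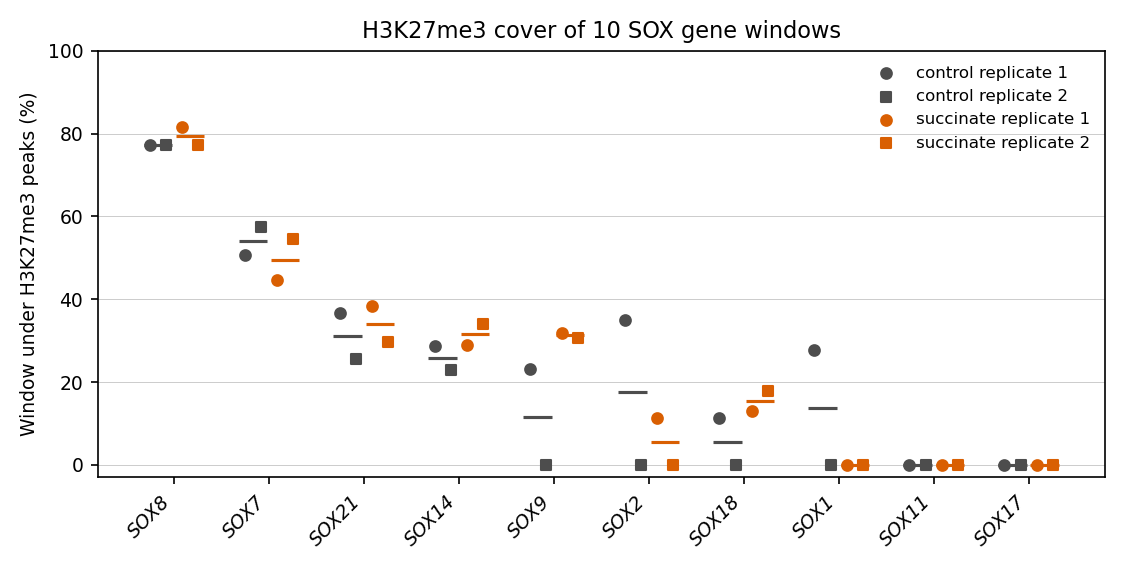
Share of each SOX window (gene body with 20 kb either side, percent of bases) under H3K27me3 peaks, with 1 point per library and a short bar for the mean of the 2 libraries of a treatment. SOX8 stands highest at 77.2% to 81.7%, SOX11 and SOX17 are at 0% in all 4 libraries, and SOX9 and SOX18 are at 0% only in control replicate 2.

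SOX8, a group E gene of neural crest and testis, had the greatest cover of the members. It lies on chromosome 16 from 981770 to 986979. Of its window, 77.2% was covered in each control library, and 81.7% and 77.2% in the succinate libraries. All of this came from a single peak per library that spanned the whole gene body and ran on beyond the window to higher coordinates. Its width was 103038 and 102444 bp in the controls, against 106022 and 103868 bp with succinate, and it overlapped the protein-coding genes LMF1, SOX8 and SSTR5 in each library. Its total signal, as listed by the authors, exceeded that of 99.3% to 99.9% of the peaks of its own library. The highest signal was not at SOX8 itself but 43.6 kb above the lower end of the gene body in all 4 libraries, at 43626 and 43627 bp in control and at 43633 and 43587 bp in succinate.

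SOX7, a group F gene of endothelium on chromosome 8 from 10723768 to 10730511, came next. Its window was 50.7% and 57.6% covered in control and 44.6% and 54.4% in succinate, and the treatments overlapped. The difference of -4.58 percentage points was smaller than the pooled replicate SD of 5.98. The cover was broken into 2 or 3 peaks per library, with a gap that began 3762 to 3954 bp below the gene body and ended inside it in each library. H3K27me3 covered 78.8% and 79.9% of the gene body in control and 24.1% and 94.5% in succinate, so succinate replicate 1 stood apart in the body itself.

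SOX21 and SOX14 are the group B genes that act mainly as repressors in neural progenitors. SOX21, on chromosome 13 from 94709622 to 94712545, was 36.7% and 25.5% covered in control and 38.5% and 29.6% in succinate. Replicate 1 was higher than replicate 2 in both treatments, and the difference between treatments of 2.98 percentage points was below the pooled SD of 7.13. The gene is on the minus strand, so its start is the upper end of the body. In 3 libraries the peak entered the gene body from below and ended 155, 156 and 214 bp inside its lower end, leaving the start outside. In control replicate 1 it ran through the whole body and past the start, ending 2422 bp above it, so that the printed stretch before SOX21 was covered there alone. The highest signal lay just below the body in all 4 libraries, at -1448 and -1462 bp from its lower end in control and -1452 and -1304 bp in succinate. SOX14, on chromosome 3 from 137764315 to 137766334, carried 1 peak per library that covered its whole body. The control peaks were 12090 and 9591 bp wide and the succinate peaks 12149 and 14318 bp, and the window was 28.8% and 22.8% covered in control and 28.9% and 34.1% in succinate. Both succinate libraries were above both controls, but the nearest libraries differed by only 59 bp.

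**Figure D2:**
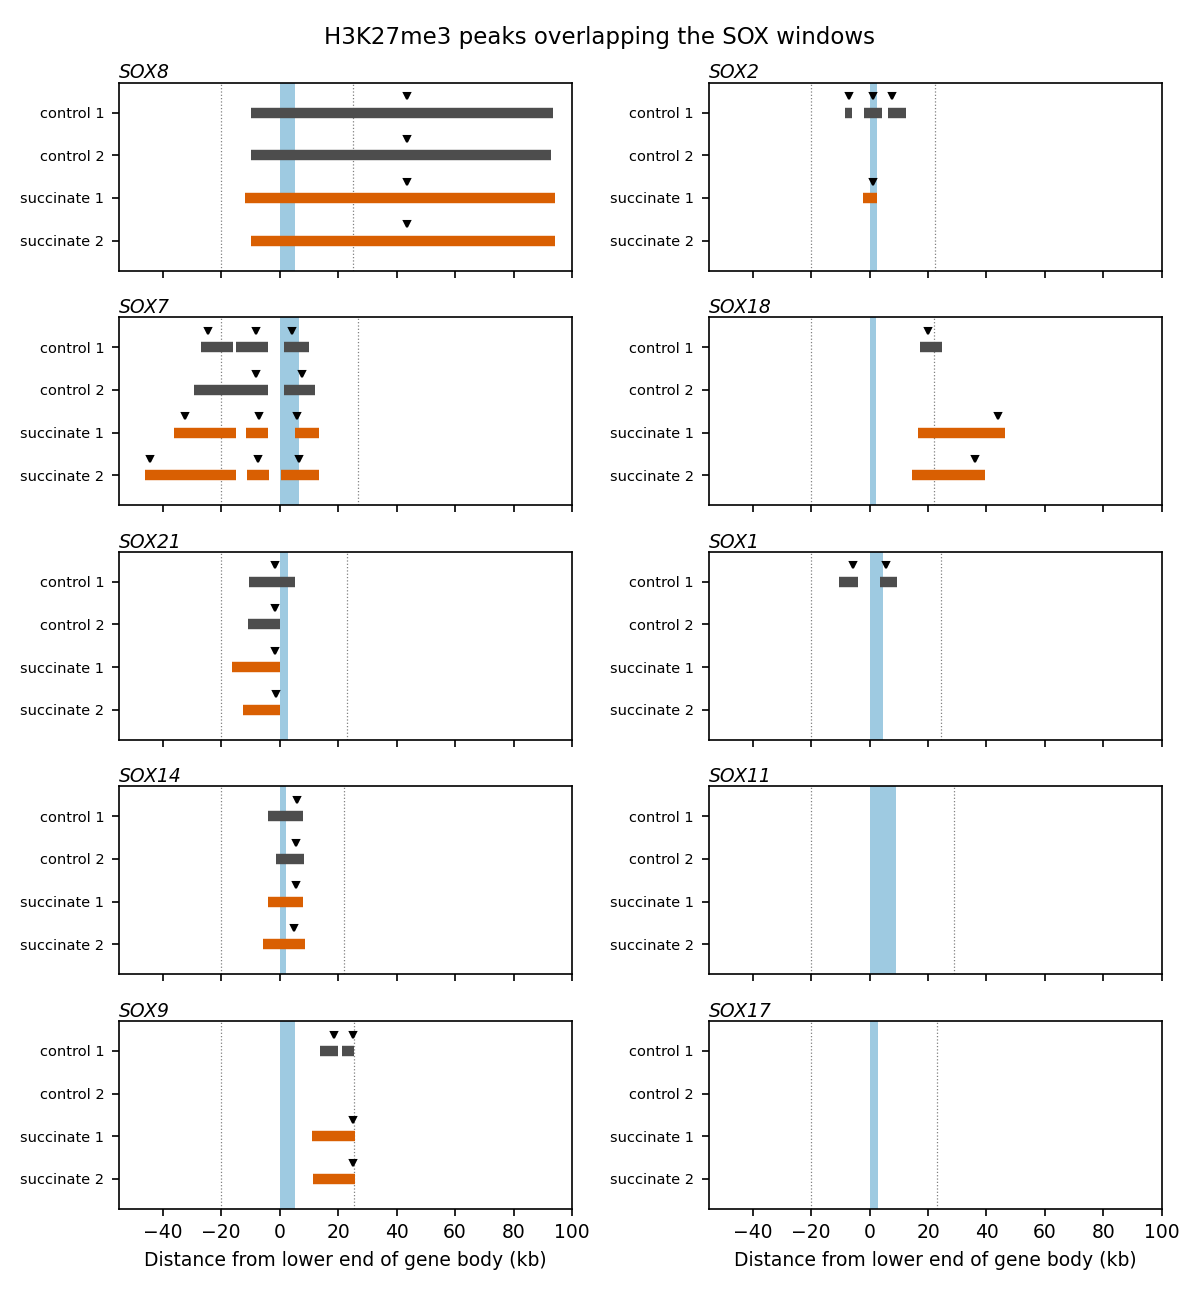
H3K27me3 peaks that overlap each SOX window, drawn as bars at their distance in kb from the lower-coordinate end of the gene body, with 1 row per library and a triangle at the place of highest signal. The gene body is shaded and dotted lines mark the window. The SOX8 peaks reach 92752 to 94305 bp above the lower end of the body in the 4 libraries, while the SOX9 and SOX18 peaks lie wholly above the gene bodies.

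SOX9, a group E regulator of cartilage and of bile duct cells, is on chromosome 17 from 72121020 to 72126416. No library had an H3K27me3 peak over its gene body. The peaks lay above it: in succinate a single peak of 14732 and 14315 bp began 5504 and 6052 bp beyond the upper end of the body. In control replicate 1 there were 2 shorter peaks of 6359 and 4304 bp in the same stretch, and in control replicate 2 the nearest peak was 44.1 kb from the body. The window was therefore 23.1% and 0% covered in control and 31.9% and 30.7% in succinate. The means were 11.5% ± 16.3 and 31.3% ± 0.854 (SD, n = 2). They differed by 19.8 percentage points with a pooled SD of 11.6, and p was 0.333 by exact permutation. Where a peak reached it, the highest signal was at nearly the same place, 25.1 kb above the lower end of the body in both succinate libraries and in control replicate 1.

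SOX18, a group F gene of blood and lymphatic endothelium on chromosome 20 from 64047582 to 64049639, resembled SOX9 in that its gene body was uncovered in all 4 libraries. Its window was 11.3% and 0% covered in control and 13.1% and 17.8% in succinate. The means were 5.66% ± 8.0 and 15.4% ± 3.39 (SD, n = 2), 9.79 percentage points apart with a pooled SD of 6.14, and p was 0.333 by exact permutation. The peaks began 12495 to 15241 bp above the gene body and overlapped the neighbouring gene TCEA2. The control replicate 1 peak was 7348 bp wide and overlapped TCEA2 alone. The succinate peaks were 29645 and 25103 bp wide and also overlapped RGS19, OPRL1 and LKAAEAR1, beyond the window. In control replicate 2 the nearest peak was 26.5 kb from the body.

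SOX1 and SOX2, markers of neural progenitors, had H3K27me3 only in the libraries with the longest peak lists, of 19133 peaks (control replicate 1) and, for SOX2, 9985 peaks (succinate replicate 1). SOX2, which also sustains pluripotency, is on chromosome 3 from 181711925 to 181714436. Its window was 35.1% and 0% covered in control and 11.3% and 0% in succinate. In control replicate 1 a peak of 6112 bp covered the whole gene body, with another peak on each side. In succinate replicate 1 a peak of 4805 bp covered 98.3% of the body. The highest signal of those body peaks lay 1142 and 1136 bp above the lower end of the body. In the libraries numbered 2 the nearest H3K27me3 peak was 1464 kb away. SOX1, on chromosome 13 from 112067149 to 112071706, was 27.7% covered in control replicate 1 and 0% in the other libraries. Its 2 peaks there were 6438 and 5909 bp wide and ranked low, with a total signal above that of 24.5% and 28.1% of the library's peaks. When the same number of peaks, 5531, was taken from each library, neither SOX1 nor SOX2 was covered in any of them.

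SOX11 and SOX17 had no H3K27me3 within 20 kb. For SOX11, a gene of developing neurons on chromosome 2 from 5692384 to 5701385, the nearest peak was 179 kb away in control replicate 1 and 1065 to 1771 kb away in the other libraries. For SOX17, the endoderm gene on chromosome 8 from 54457935 to 54460892, it was 57.7 kb away in control replicate 1 and 575 to 8009 kb away in the others. Peaks were thus far from both genes in the succinate libraries and control replicate 2, and nearer in the control library with the longest list.

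The question between treatments was whether succinate changed the H3K27me3 cover of these windows. SOX8, SOX9, SOX14 and SOX18 were higher in both succinate libraries than in both controls, which is 4 of the 8 members covered in any library, beside 22.1% of the 8421 such windows among all genes. No member was lower in both, beside 4.77%. The nearest libraries of the treatments differed by 2 bp at SOX8 and 59 bp at SOX14, against 3462 bp at SOX9 and 731 bp at SOX18. With each window's cover divided by the library's share of the chromosomes, 2 members, SOX9 and SOX18, were higher in both succinate libraries, beside 16.4% of windows, and none was lower, beside 5.43%. At gene bodies alone, none of the 6 members covered there was higher in both succinate libraries, beside 14.8% of the 5017 covered bodies. The bodies of SOX8 and SOX14 were wholly covered in all 4 libraries. Those of SOX9, SOX11, SOX17 and SOX18 were uncovered in all 4, so these bodies could show no order. The median difference over the 10 members was 1.12 percentage points, against a median pooled SD of 6.06 and a median of 0 over all windows. With 4 libraries there are only 6 ways to assign treatments, so the exact permutation p (two-sided) cannot fall below 0.333. After Benjamini-Hochberg adjustment over 8421 windows every adjusted p was 1. No window passed at an unadjusted p under 0.05 either, so these libraries do not establish any of the differences.

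The size of the SOX9 and SOX18 differences moved with control replicate 2. Without that library they were 8.23 and 4.13 percentage points, in the same direction. At 5531 peaks per library both windows were at 0% in both controls while the succinate values stayed the same, and SOX8 and SOX14 kept their order too. In that setting 43.7% of covered windows were higher in both succinate libraries, which is a larger background for the 4 members that were higher. All libraries were also held to the same lowest total signal, counted in the smallest signal step of each library. There SOX8, SOX9 and SOX18 were higher in both succinate libraries, beside 50.1% of covered windows. Such steps may not be equal between libraries. The SOX8 peak held 5376230 and 6340961 steps in control and 9193560 and 12598038 in succinate. With the 50% of peaks of highest signal in each list, the SOX9 call was lost, at 0% in both controls and 31.9% and 0% in succinate. SOX14 also overlapped there, SOX8 and SOX18 were higher, beside 22.9% of covered windows, and SOX7 was lower, with 50.7% and 34.3% in the controls against 10.7% and 10.6%, beside 3.92%. The labels call the replicates biological but do not say whether they were separate cultures, so p-values measure only the spread between these samples, which may be technical.

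Peak width was compared for the 4 members overlapped in every library. The widest SOX7 peak measured 11053 and 25214 bp in the controls, against 21002 and 31173 bp with succinate, and the treatments overlapped. The SOX21 peak measured 15738 and 10937 bp in the controls, against 16517 and 12715 bp with succinate, again with overlap. At SOX8 and SOX14 both succinate peaks were wider than both control peaks. The log2 differences were 0.03 (pooled SD 0.02) and 0.29 (pooled SD 0.20), with exact permutation p = 0.333 for each. At SOX14 the nearest libraries measured 12090 bp (control replicate 1) and 12149 bp (succinate replicate 1). How many of all windows had wider peaks in both succinate libraries was not computed. The median width over a whole H3K27me3 list ran from 6767 bp in control replicate 1 to 17454 bp in succinate replicate 2. Control replicate 2, at 14406 bp, was above succinate replicate 1, at 11488 bp. The part of list width was not tested. The median log2 difference over the 4 members was 0.22 against a median pooled SD of 0.26.

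Of the other 10 SOX genes, 1 was overlapped by H3K27me3 in every library, 5 in some and 4 in none. Of all windows, 20.8% were overlapped in every library and 58% in none. The difference from the members was not tested. The members were chosen with earlier results of these data known, which may shape that difference. SOX6, a gene of cartilage and muscle, was the one overlapped in every library, and its window was 1.51% to 1.66% covered. SOX3, SOX12, SOX15 and SRY were overlapped in none. SOX4, SOX5 and SOX30 were overlapped only in control replicate 1, at 19.2%, 0.725% and 5.16%. SOX10, a neural crest gene, was 12.4% and 0% covered in control and 13.9% and 0% in succinate. SOX13 was 5.92% and 0% covered in control and 11.6% and 13.9% in succinate, higher in both succinate libraries (exact permutation p = 0.333, adjusted p = 1). As a comparison with another family of developmental factors, the 9 PAX genes were all overlapped in each of the 4 libraries, beside 20.8% of all windows. The PAX windows were 47851 to 241000 bp long, against 42020 to 49002 bp for the SOX members. Of windows with a gene body of at most 10 kb, 20.8% were overlapped in every library, the same share as of all windows. The part of window length in the PAX count was not tested. The difference between the families was not tested.

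Ksu was found in the SOX windows as short peaks, up to 14 in a window,. All 10 windows held Ksu peaks in each library except control replicate 1, where SOX1, SOX7, SOX8 and SOX18 had none. That library also listed the fewest Ksu peaks, whose part in the result was not tested. The 6 of 10 windows overlapped in every library stood beside 54.7% of all windows and 37.3% of those with a gene body of at most 10 kb. None of the 10 lacked Ksu in all libraries, beside 2.36% of all windows and 4.78% of those with short bodies. No SOX gene body was overlapped in every library, beside 31.7% of all gene bodies, and 1, that of SOX14, was overlapped in none, beside 9.97%. All 10 SOX bodies are at most 10 kb long. Of the 5694 bodies of that length, 121 were overlapped in every library and 1674 in none. The widest Ksu peak in a SOX window was 2261 bp, at SOX17 in succinate replicate 1. Ksu cover of the median SOX window was 1.42% and 6.57% in the controls, against 6.43% and 11.9% with succinate, where the median of all windows was 0.790%, 3.42%, 5.34% and 11%.

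**Figure D3:**
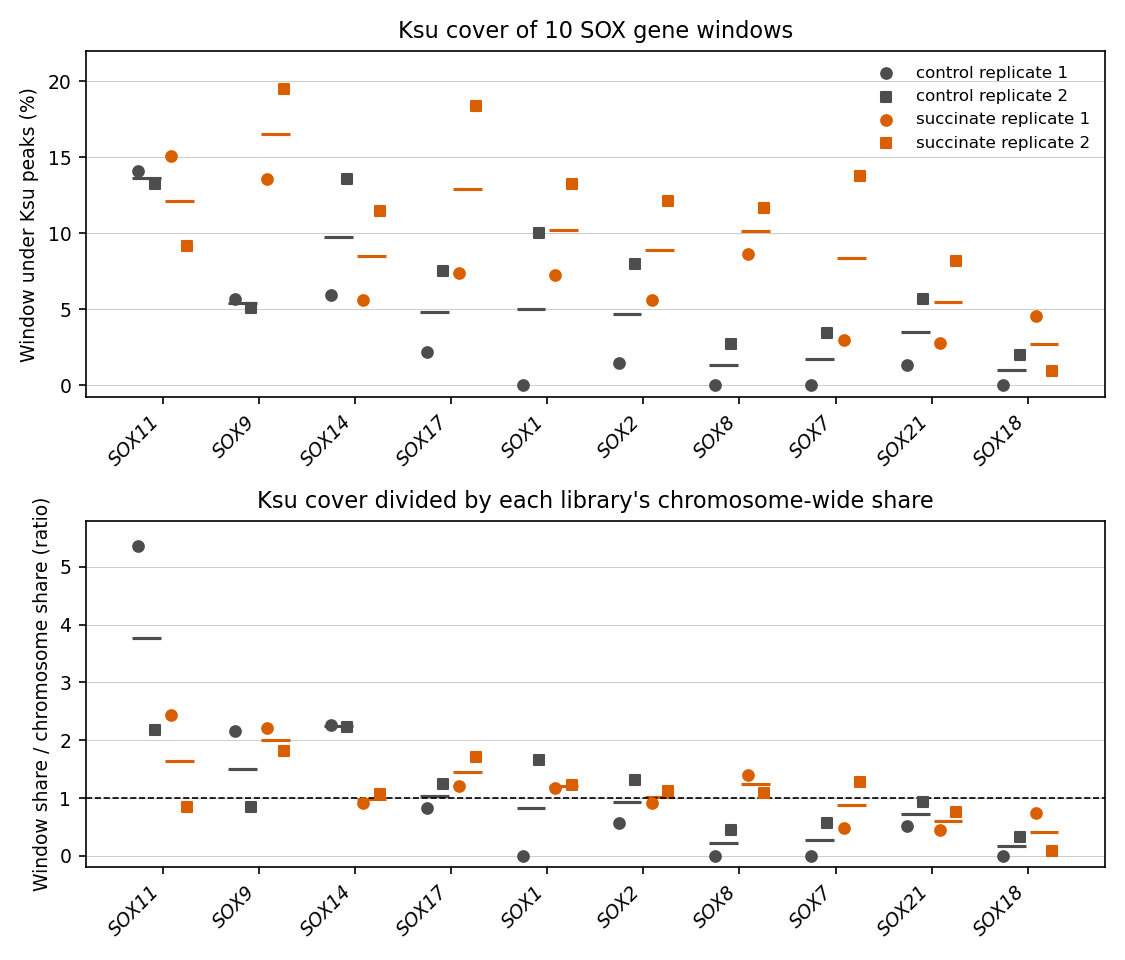
Ksu cover of the SOX windows in percent of bases (upper panel) and divided by the share of all chromosomes that each library covers (lower panel, a ratio, with a dashed line at 1), with 1 point per library and a short bar for the mean of the 2 libraries of a treatment. SOX8 and SOX9 are higher in both succinate libraries in the upper panel; in the lower panel SOX8 is higher and SOX14 lower in both.

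SOX11, which had no H3K27me3 in its window, had the highest mean Ksu cover of the members in control, at 13.7%, while in succinate SOX9 (16.5%) and SOX17 (12.9%) were above its 12.1%. It was 14.1% and 13.2% covered in control and 15.0% and 9.16% in succinate. In control these values exceeded 99.7% and 98.9% of all gene windows of the same library, and in succinate 95.9% and 33.7%. The succinate replicates therefore lay on either side of the controls. The difference of -1.56 percentage points was below the pooled SD of 2.98.

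SOX9 and SOX8 were the members whose Ksu cover was higher in both succinate libraries. SOX9 was 5.67% and 5.10% covered in control and 13.6% and 19.5% in succinate. Its means were 5.38% ± 0.403 and 16.5% ± 4.16 (SD, n = 2), 11.2 percentage points apart where the pooled SD was 2.95 (p = 0.333 by exact permutation, adjusted p = 0.492). SOX8 was 0% and 2.71% covered in control and 8.62% and 11.7% in succinate, 8.80 percentage points apart where the pooled SD was 2.05 (p = 0.333 by exact permutation, adjusted p = 0.492). These 2 of 10 members stand beside 67.5% of the 19564 windows with Ksu in any library, and no member was lower in both, beside 0.256%. The members' share lies below that of all windows, and the difference was not tested. The median difference over the members was 4.68 percentage points with a median pooled SD of 4.02, and over all windows 5.67. Over the 5694 windows with a gene body of at most 10 kb, closer in size to the SOX windows, it was 4.88. Of those 5694 short-body windows, 3204 were higher in both succinate libraries and 272 had no Ksu in any library.

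The share of the chromosomes under Ksu peaks was 2.63% and 6.07% in the control lists, against 6.16% and 10.8% with succinate, so cover was also divided by that share. SOX8 remained higher in both succinate libraries, with 0 and 0.446 times the chromosome-wide share in the controls against 1.40 and 1.09 with succinate. SOX9 did not, with 2.15 and 0.840 in the controls against 2.21 and 1.81. SOX14 was lower in both succinate libraries, with 2.25 and 2.23 in the controls against 0.907 and 1.06. On this scale 49.6% of all covered windows were higher in both succinate libraries and 4.95% lower, beside 1 of 10 members each. With equal numbers of 76702 peaks, SOX8 and SOX17 were higher in both succinate libraries, beside 30.7% of covered windows. SOX2 was lower, beside 7.01%, while the SOX9 and SOX14 treatments overlapped. The median difference in cover over the members was then 0.710 percentage points, against 4.68 with all peaks.

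The remaining members overlapped between treatments on both scales. SOX17 was 2.17% and 7.49% covered in the controls, against 7.40% and 18.4% with succinate, where succinate replicate 1 and control replicate 2 nearly coincided. SOX1 was 0% and 10.0% covered in control and 7.24% and 13.2% in succinate. SOX2 was 1.48% and 7.95% covered in control and 5.62% and 12.1% in succinate. In each of these 3 windows replicate 2 was the higher library within both treatments. SOX7 (0% and 3.41% in control, 2.99% and 13.8% in succinate) and SOX21 (1.35% and 5.65%, 2.76% and 8.16%) followed the same order of replicates. SOX18 had the lowest mean, with 0% and 1.98% in the controls against 4.54% and 0.944% with succinate. Peak width was compared as well. For the 6 members with a peak in every library the median log2 difference in the widest peak was 0.22, against a median pooled SD of 0.40.

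Finally, the Ksu cover of bases inside H3K27me3 peaks was set against that of the other bases in the SOX windows, using libraries of the same treatment and replicate number. Inside the peaks 0.838% and 4.36% of bases were under Ksu peaks in control and 5.05% and 13.5% in succinate. Outside, the control values were 4.14% and 7.77% and the succinate values 8.27% and 11.3%. Ksu was therefore less frequent inside H3K27me3 peaks in 3 of the 4 pairs, and more frequent in succinate replicate 2. Over all gene windows together it was more frequent inside in every pair, at 3.85%, 6.55%, 12.1% and 15.9% inside against 2.23%, 5.36%, 6.23% and 11.7% outside. The log2 ratio of inside to outside in the SOX windows was -2.31 and -0.83 for the controls, against -0.71 and 0.26 with succinate. The succinate ratios were higher by 1.34 on average, and the pooled SD was 0.88 (p = 0.333 by exact permutation). With only the H3K27me3 bases shared by all 4 libraries the difference was 0.26. The remaining values again used each library's own H3K27me3 peaks. Leaving out each library in turn, together with its partner, gave 0.61 (without the control pair numbered 1) to 2.08 (without the control pair numbered 2).

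**Figure D4:**
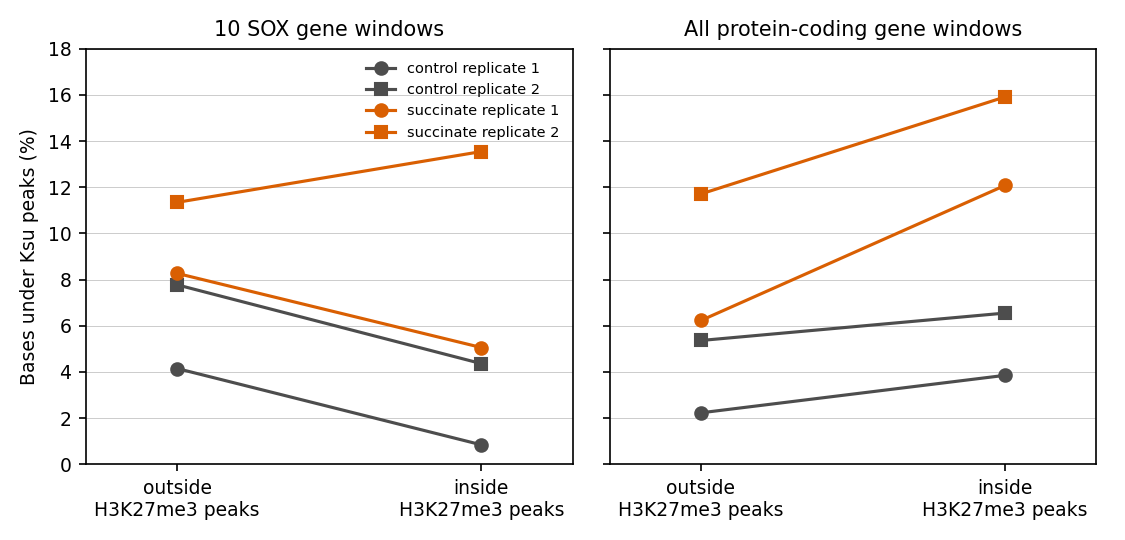
Percent of bases under Ksu peaks outside and inside H3K27me3 peaks, in the 10 SOX windows (left) and in all protein-coding gene windows (right), with 1 line per pair of libraries of the same treatment and replicate number. In the SOX windows 3 of 4 lines fall from outside to inside, and in all windows every line rises.

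The windows behind these sums differ in content. SOX11 and SOX17, without H3K27me3, added bases only to the outside. In control replicate 1, SOX11 held 6905 of the 13032 Ksu bases outside, and SOX14 held all 1081 inside. SOX8 supplied 34902 to 36927 bp of the H3K27me3 bases in each library, out of 82336 to 128933 bp in all 10 windows. Within SOX8 Ksu covered 0% and 1.88% of those bases in control and 6.22% and 13.9% in succinate. Within SOX14, where H3K27me3 lies over the gene itself, Ksu covered 8.94% and 16.6% in control and 10.1% and 11.5% in succinate, and was more frequent inside than outside in all 4 pairs, by a log2 ratio of 0.01 to 1.42.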

How the data were processed

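CUT&Tag peak lists of 8 libraries were used, 1 list per library. Per the submitters' processing notes the authors used SEACR and build hg38, and per the file names its stringent mode. SEACR keeps blocks of covered bases by their total signal. The aligner, any control track and the threshold are not given in the sources used here. The deposited signal was scaled by the authors, and in each list 100% of the values of the column of highest signal were a step times a whole number (within 0.02). It was therefore used only for ranks within a library or in steps. Read depth is unknown.

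Gene bodies came from a RefSeq table of GRCh38.p14. The measure was the percent of bases in a window under peaks on 24 chromosomes. Mean cover was compared between treatments with an exact two-sided permutation test, adjusted by Benjamini-Hochberg over all covered windows. Scripts used Python 3.11.15, numpy 2.4.6, pandas 2.3.3 and statsmodels 0.14.6 and were tested on simulated intervals. The members and lists, and the rule naming every member, the other SOX genes, the PAX genes and 12 hepatocyte genes, were chosen with earlier results of these data known. Alternatives changed the flank, the peaks used, the replicates and the measure. The background of short gene bodies was added after seeing the data.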

Additional observations from a re-analysis of the deposited data

How the results depend on the processing

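Over 12 summary results, 128 alternative values were computed: 99 stayed within the replicate SD (counts within 1.5 times) and the others moved further or turned, with 4 of them changing sign (Ksu width at 2 settings, relative Ksu cover at 2 settings). The exact tests could not pass 0.05 under any of them.

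Members called higher or lower in both succinate libraries are given with the share of all covered windows. With gene bodies alone, 0 members had higher H3K27me3 (14.8%) or Ksu (51.8%), and relative Ksu cover differed by -0.124. No member had Ksu over its body in every library, beside 121 of the 5694 bodies of at most 10 kb. There the H3K27me3 difference turned at SOX21 (-46.3 percentage points), and that of Ksu at SOX9 (-3.20), SOX1 (-5.62), SOX2 (-3.03), SOX21 (-14.7) and SOX11 (2.76). With a 5 kb flank, 1 member had higher H3K27me3 (20.8%), 1 had Ksu in every library, and the Ksu width difference was -0.26. With 50 kb, 7 had H3K27me3 in every library, 4 had higher Ksu (73.7%), and the Ksu width difference was -0.13. At equal numbers of peaks 1 member had lower Ksu (7.01%) and 2 had Ksu in every library. The median Ksu difference fell from 4.68 to 0.710 percentage points there and at a common floor. Both values counted as within the SD of 4.02. With the 50% of peaks of highest signal, 2 members had higher (22.9%) and 1, SOX7, lower H3K27me3 (3.92%), 5 had higher Ksu (60%), and 2 and 3 had H3K27me3 and Ksu in every library. At a common floor, counted in each library's own signal steps, the median H3K27me3 difference was 8.83 percentage points. There 1 member had H3K27me3 and 0 had Ksu in every library, and 1 had higher Ksu (17.4%). Merging within 1 kb gave a Ksu width difference of 0.74, and peaks of at least 500 bp gave 5 members with higher Ksu (67.2%). At 50% cover 1 member had H3K27me3 and 0 had Ksu in every library. Using only the H3K27me3 bases of all 4 libraries, the log2 ratio of Ksu inside to outside differed by 0.26. With each library's own H3K27me3 peaks it differed by 1.34, and by 0.61 to 2.08 with each library left out. Shorter lists and windows can only lower the number of members overlapped in every library, and the cause of the other changes was not tested.

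Leaving out each library in turn, the median H3K27me3 difference ranged from 0 (without control replicate 2) to 3.95 and its width difference from 0.21 to 0.66 (without control replicate 2, when SOX9 and SOX18 enter). Members with H3K27me3 in every library numbered 4 to 6. The Ksu difference ranged from 0.840 (without control replicate 1) to 7.88, its width difference from 0.17 to 0.29, its relative difference from -0.103 (without control replicate 1) to 0.433, and the members with Ksu in every library from 6 to 10. With the replicate number as a block the H3K27me3 difference stayed at 1.12 and the Ksu difference at 4.68, as the construction requires. The difference between replicates 1 and 2 correlated between treatments by 0.28 over H3K27me3 windows and 0.13 over Ksu windows, and with 2 pairs and no shared batch in the labels the numbers were not taken as pairs.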

Other observations

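Replicates of a treatment shared few Ksu bases in the SOX windows, and whether this differs from other windows was not tested. No base of the 10 windows was under a Ksu peak in all 4 libraries, where 3.58% of all windows and 1.21% of those with a gene body of at most 10 kb held such bases. Both succinate libraries covered the same 1660 bp at SOX9, 1022 bp at SOX2, 341 bp at SOX1, 312 bp at SOX11 and 80 bp at SOX14, and no base at the other 5 members. Both control libraries covered the same 706 bp at SOX17, 577 bp at SOX11 and 512 bp at SOX14, and no base at the other 7. These counts within a treatment were not set beside those of all windows.

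For each member, the percentile of its Ksu cover among all gene windows of the library was compared between treatments. The median of these differences over the members was 0.0998 percentile points, against a median pooled SD of 14.3.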
